A study of Mus musculus with 4 samples.

Results

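The genes of respiratory complex I were examined in tibialis anterior (TA) muscle of WT and Fgf21KO mice after sham surgery or denervation. A gene was taken as a member if its symbol in the count table began with Nduf or was 1 of the mitochondrially encoded ND1, ND2, ND3, ND4, ND4L, ND5 and ND6. This gave 57 genes of the 13825 in the table. They were 42 nuclear subunit genes, 7 mitochondrial subunit genes and 8 nuclear Ndufaf genes, which encode assembly factors. All 57 passed the filter on low counts. The symbols include a few genes that are not complex I subunits. Ndufa4 is now assigned to complex IV, Ndufa4l2 is a paralog of Ndufa4, and Ndufb4b, Ndufb4c and Ndufs5-ps are extra copies of Ndufb4 and Ndufs5.

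Adult male mice were used, either WT (C57BL/6J) or carrying a whole-body Fgf21 deletion, whose strain background is not stated in the study's methods. The sciatic nerve of 1 leg was cut and the other leg of the same mice served as the control, and muscles were taken after 14 days. The 4 groups were named by genotype (W or K) and surgery (S or D), giving WS and WD for WT muscle and KS and KD for Fgf21KO muscle. Muscles of 4 mice were pooled for each group, so each group was 1 library and the spread between mice was not measured. The sources differ on the surgery, since the labels describe an untouched control leg and the study's methods a sham-operated one.

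Complex I (NADH:ubiquinone oxidoreductase) is the entry point of the respiratory chain in the inner mitochondrial membrane. It takes electrons from NADH, passes them along iron-sulfur clusters to ubiquinone, and pumps protons across the membrane. Its core is built from mitochondrially encoded membrane subunits, which form the proton channels, and from nuclear subunits that hold the flavin and the iron-sulfur clusters. Accessory subunits surround the core, and assembly factors help to build the enzyme without remaining in it. The enzyme therefore needs transcripts from 2 genomes, and skeletal muscle, with its high energy demand, holds a great deal of it.

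The table held between 25249879 (WS) and 34141303 (KS) counts per library. Levels are given as CPM, counts scaled to the library size, after TMM scaling, an edgeR method that sets the bulk of genes equal between libraries. A gene was said to rise or fall only at an adjusted p-value under 0.05 in edgeR's quasi-likelihood test. The fit was an additive model of surgery and genotype over all 4 libraries. That model leaves 1 residual degree of freedom, so an interaction of genotype and surgery could not be tested. The 2 genotypes served as the repeat of each surgery. The SEs and p-values of denervation thus rest largely on a spread shared across genes and do not measure the spread between mice. A small SE does not show that the 2 genotypes agreed for that gene. The SE was 0.08 for Ndufb5, with log2 ratios of -0.27 in WT and -0.58 in Fgf21KO muscle. It was 0.07 for Ndufs8, with log2 ratios of -0.77 and -0.70. Between 2 single libraries no spread could be estimated, so no test is given there, and log2 ratios are given with 95% exact binomial intervals, which cover counting error only. RNA levels of cell type markers also differed between the libraries, against a background of 27.0% of all genes lower and 26.6% higher. All 4 endothelial markers fell, with a summed level of 319 to 397 CPM in the sham and 173 to 179 CPM in the denervated libraries. All 5 macrophage markers rose, from sums of 6.30 to 7.75 CPM to sums of 22.1 to 22.8 CPM. Their counts were low in sham muscle, down to 11 for Itgam in KS. Of 5 fibroblast markers 3 fell, with sums of 553 to 580 CPM in sham and 376 to 395 CPM in denervated muscle, and Mbp, 1 of the 2 Schwann cell markers analysed, fell, with sums of 19.1 to 21.9 CPM and 15.04 to 15.9 CPM. No marker in the table was at 0. Of the fibre markers listed, only Myh1, a fast myosin, was analysed here, and it fell by 0.47 on the log2 scale. The part of these cell types in the results below was not tested, and fewer cells of a type or less RNA per cell cannot be told apart in such libraries.

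Most complex I transcripts were lower after denervation with TMM scaling, whereas with library totals alone 19 genes fell and 11 rose, beside 12.8% and 46.7% of all genes under that scaling. With TMM, of the 57 genes 44 fell, against a background of 27.0% of all 13084 genes tested, and 1, Ndufaf2, rose, against a background of 26.6%. In 48 of 57 genes both denervated libraries lay below both sham libraries (background 36.7%), and in 1 gene both lay above (background 38.1%). With a change of at least 2-fold also required, Ndufa4l2 and ND2 fell (background 6.24%) and 0 genes rose (background 6.84%), so most of the falls were modest. The classes differed in size. The median log2 fold change was -0.89 for the 7 mitochondrial subunits, -0.34 for the 42 nuclear subunits and 0.03 for the 8 assembly factors, beside 0.01 for all genes tested.

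**Figure D1:**
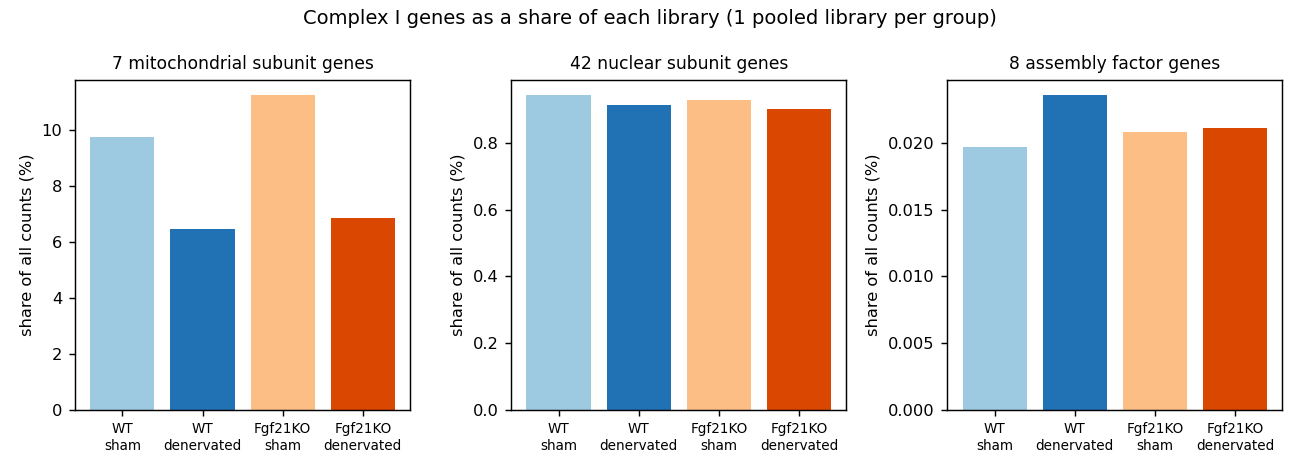
Share of all counts (%, y axis) taken by each class of complex I genes in the 4 libraries (x axis), 1 bar per pooled library. The mitochondrial share is lower in both denervated libraries (6.46% and 6.86%) than in both sham libraries (9.76% and 11.2%), while the nuclear subunit share stays between 0.901% and 0.943%. Totals include the mitochondrial counts, so a steady nuclear share is not a steady share of the remaining counts.

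The contrast between the 2 genomes did not depend on scaling between libraries, because it could be read within each library. Counts on the 7 mitochondrial genes made up 9.76% of the WS library against 6.46% of the WD library, and 11.2% of the KS library against 6.86% of the KD library. Counts on the 42 nuclear subunit genes made up 0.943%, 0.914%, 0.929% and 0.901% in the same order. These shares are of totals that include the mitochondrial counts. All mitochondrial protein-coding genes together took 27.0%, 19.4%, 30.4% and 20.6% of the counts in that order. A nearly steady nuclear share of such totals is therefore a lower share of the remaining counts after denervation. For each nuclear subunit count there were 10.3 mitochondrial counts in WS (95% interval 10.30 to 10.39) and 7.07 in WD (7.04 to 7.10). In Fgf21KO muscle the ratio was 12.1 in KS (12.05 to 12.14) and 7.62 in KD (7.58 to 7.65). The mitochondrial-to-nuclear ratio was thus 1.46-fold lower after denervation in WT and 1.59-fold lower in Fgf21KO muscle. Both sham libraries were above both denervated ones, well outside counting error, although the spread between mice is unknown.

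All 7 mitochondrial subunits fell (background 27.0% with TMM scaling), and their direction was the same under each scaling tried. ND2, a proton-pumping membrane subunit, changed most among them. Its level was 22635 CPM in WS against 9460 in WD, and 28283 in KS against 10399 in KD. The denervated libraries were well below the sham ones, and the log2 fold change was -1.35 (SE 0.10, adjusted p = 1.6e-12 by edgeR's quasi-likelihood test). ND1, which helps to form the ubiquinone-binding site, was at 27575 CPM in WS against 15163 in WD, and 35307 in KS against 17004 in KD, a fall of 0.96 (SE 0.10) on the log2 scale. ND4L, a small membrane subunit, was at 3794, 2015, 4231 and 2087 CPM in the same order and fell by 0.97 (SE 0.08). In both genes the denervated libraries were close to each other, and the KS library was the highest.

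ND5, the subunit that carries the long lateral helix of the membrane arm, was at 22589 CPM in WS against 12975 in WD, and 26117 in KS against 13315 in KD and fell by 0.89 (SE 0.10) on the log2 scale. ND3, a small subunit at the junction of the arms, was at 1581, 941, 2089 and 1052 CPM and fell by 0.87 (SE 0.08). ND4, another proton-pumping subunit, was at 26977, 16533, 31990 and 16947 CPM and fell by 0.81 (SE 0.10). These genes shared the same order of libraries, with KS the highest, WS next and the denervated libraries lowest. ND6, the only member encoded on the light strand of mitochondrial DNA, showed the smallest fall of the 7, by 0.65 (SE 0.07), with 901 CPM in WS against 580 in WD, and 1143 in KS against 721 in KD.

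**Figure D2:**
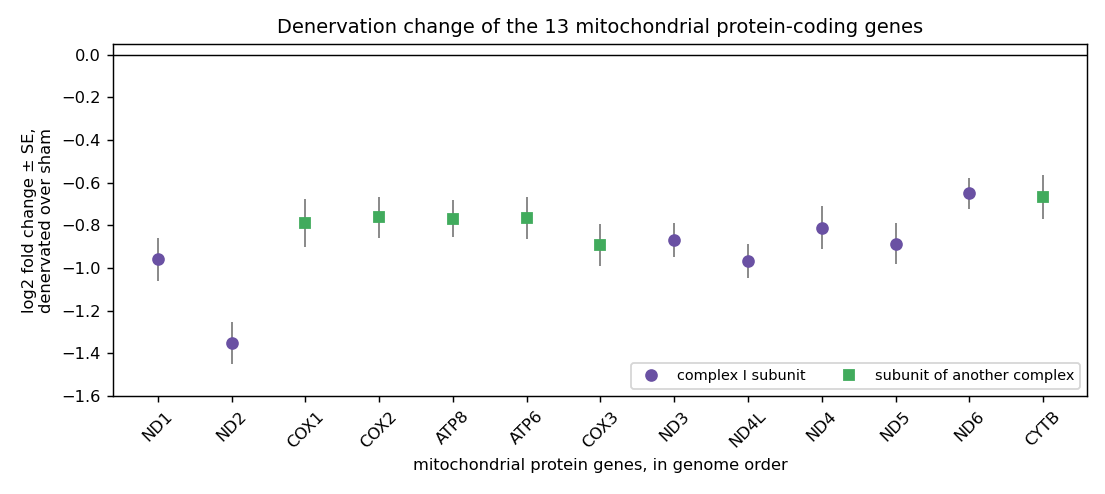
Log2 fold change of denervated over sham muscle (y axis, bars are the SE of the additive edgeR fit) for the 13 mitochondrial protein-coding genes in genome order (x axis), with complex I genes as circles. ND2 is lowest at -1.35, ND6 and CYTB are nearest to 0, and no gene lies above -0.65.

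Set in the order of the mitochondrial genome, the fall was not even. The 6 mitochondrially encoded subunits of other complexes all fell as well (background 27.0%). Their changes lay between -0.67 (CYTB) and -0.89 (COX3) on the log2 scale, with a median of -0.77. ND2 lies next to ND1 (-0.96) and COX1 (-0.79), and it stood below both. Relative to ND4 counts in the same library, ND2 counts were 0.839 in WS against 0.572 in WD, and 0.884 in KS against 0.614 in KD. Its share of all mitochondrial complex I counts was 21.3% in WS against 16.4% in WD, and 21.9% in KS against 16.9% in KD, so both denervated libraries were lower than both sham libraries within the set. ND6 per ND4 count was 0.0334 in WS against 0.0351 in WD, and 0.0357 in KS against 0.0425 in KD, the highest value being that of the KD library. The neighbours ND4L and ND4 overlap by 7 bases and ND5 and ND6 by 14 bases, so a small part of the reads of a pair may be shared, for ND5 and ND6 only where counting ignored strand, which is not stated. The libraries were made from poly(A)-selected RNA, and ND6 mRNA is known to carry little poly(A), so its level cannot be compared directly with that of the other genes.

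Per kilobase of transcript, mitochondrial subunits were far more abundant than nuclear ones. The median level per length was 12775 CPM per kilobase for the mitochondrial genes in WS against 247 for the nuclear subunits and 13.3 for the assembly factors. In WD the medians were 7113, 198 and 14.5, in KS 14319, 260 and 15.8, and in KD 7300, 199 and 12.96 CPM per kilobase. The order of the classes was the same in all 4 libraries, and 55 of the 57 genes had a transcript length for this scale.

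Among nuclear subunits 34 of 42 fell and 0 rose with TMM scaling, beside 27.0% and 26.6% of all genes. Their median fold was 1.26 for sham over denervated muscle. Without Ndufa4, Ndufa4l2 and the extra copies, 30 of 37 fell. The direction of this class rested on the scaling: with library totals alone 10 of 42 fell and 6 rose (12.8% and 46.7% of all genes), since the median of all genes then moved up by 0.29 in WT and 0.36 in Fgf21KO muscle, while the nuclear median was -0.01 in both. Relative to that shift the nuclear subunits were again lower than the bulk of genes. By family, with TMM scaling, 12 of 14 Ndufa, 10 of 13 Ndufb and 2 of 2 Ndufc genes fell. So did 6 of 9 Ndufs and 3 of 3 Ndufv genes, beside 27.0% of all genes. Ndufab1, a mitochondrial acyl carrier protein, fell by 0.35.

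**Figure D3:**
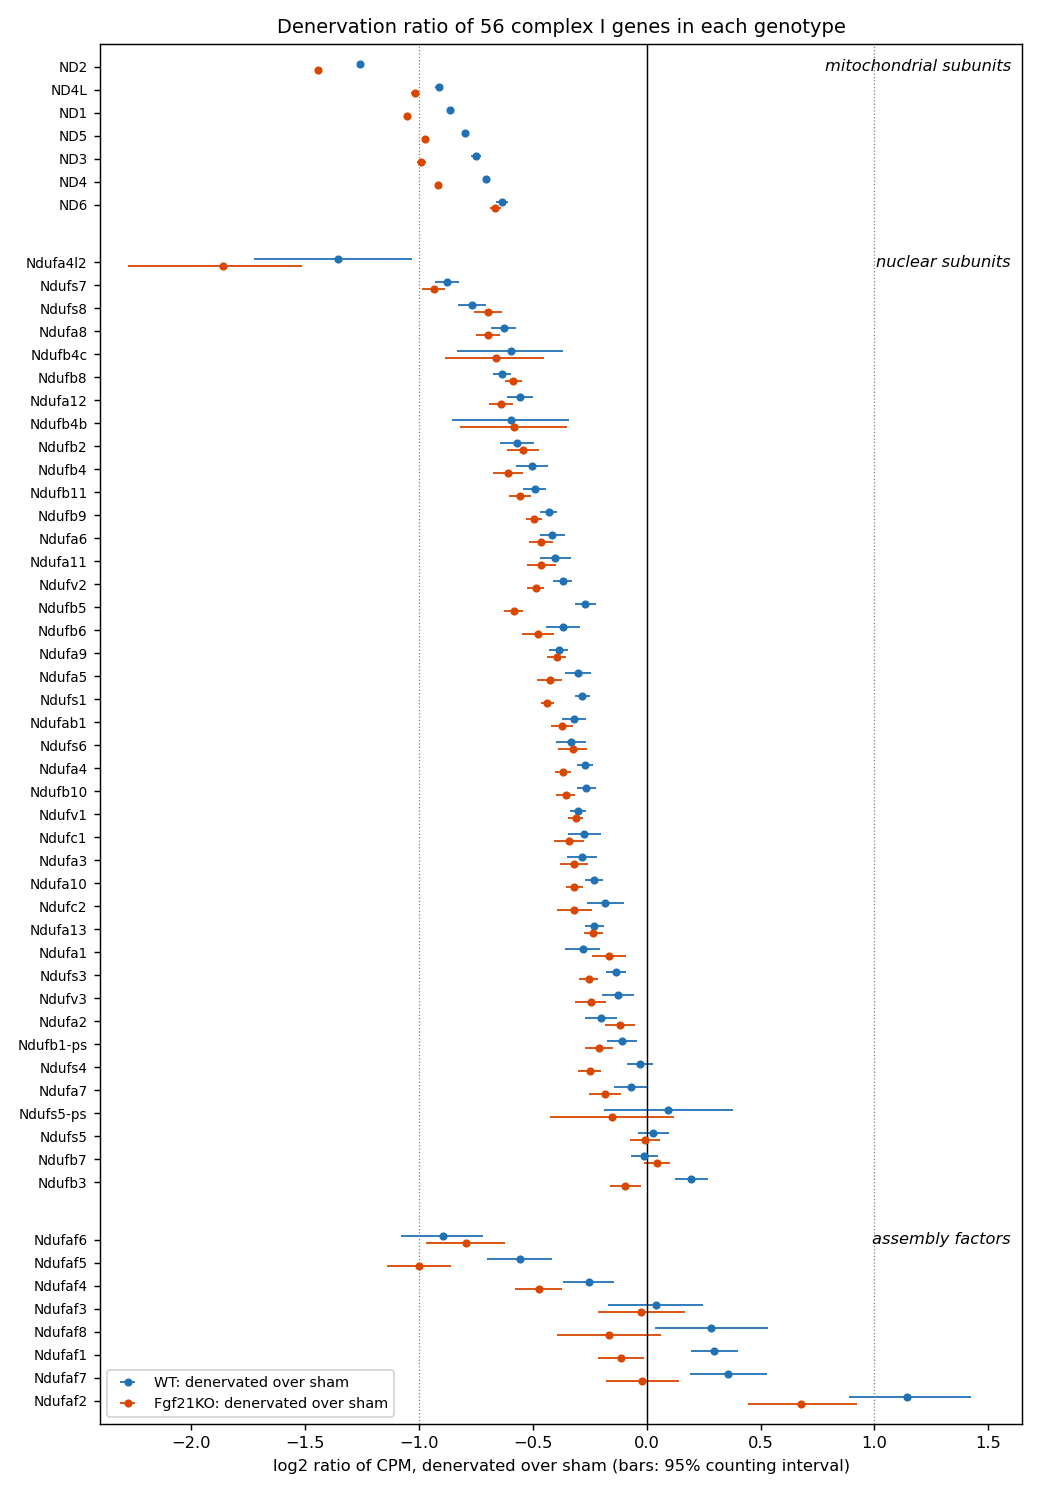
Log2 ratio of CPM (x axis, TMM scaling) of denervated over sham muscle in WT (blue) and Fgf21KO (orange) for 56 genes (y axis, by class), with 95% counting intervals as bars and dotted lines at 2-fold. All 7 mitochondrial genes lie at about -0.64 or lower in both genotypes. The nuclear class spreads from Ndufa4l2, which is not a complex I subunit and lies farthest to the left, to values near 0. Ndufaf2 is the gene farthest to the right. With library totals alone the ratios of many nuclear genes move to about 0.

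The 6 nuclear core subunits described here all fell with TMM scaling, beside 27.0% of all genes, but by different amounts. Ndufs7, which binds the last iron-sulfur cluster before ubiquinone, was at 312 CPM in WS against 170 in WD, and 303 in KS against 159 in KD. Both denervated libraries were far below both sham libraries, and the log2 fold change was -0.91 (SE 0.07, adjusted p = 7.4e-12 by edgeR's quasi-likelihood test). Ndufs8, which carries the iron-sulfur clusters next to it, was at 199, 117, 185 and 114 CPM in the same order and fell by 0.73 (SE 0.07). The other 4 changed less. Ndufv2, an iron-sulfur subunit of the NADH-binding module, was at 381, 295, 444 and 317 CPM and fell by 0.43 (SE 0.07). Ndufs1, the largest subunit of that module, was at 649, 534, 712 and 526 CPM and fell by 0.36 (SE 0.07).

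Ndufv1, which binds the flavin and NADH, was at 532 CPM in WS against 432 in WD, and 515 in KS against 415 in KD and fell by 0.31 (SE 0.07) on the log2 scale. Ndufs3, a subunit of the peripheral arm, was at 302, 275, 311 and 260 CPM and fell least of the 6, by 0.20 (SE 0.07, adjusted p = 0.022 by edgeR's quasi-likelihood test). In all 6 genes the denervated libraries were below both sham libraries, as in 36.7% of all genes. With library totals alone Ndufs7 and Ndufs8 still fell, while the other 4 lost their calls. The estimates were then -0.04 for Ndufs1 (adjusted p = 0.58 by edgeR's quasi-likelihood test), -0.11 for Ndufv2 (adjusted p = 0.13), 0.13 for Ndufs3 and 0.01 for Ndufv1. DESeq2's Wald test did not call Ndufs3 (adjusted p = 0.059).

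The other nuclear genes covered a wide range. Ndufa4l2, a paralog of Ndufa4 known to be induced by hypoxia and not itself a complex I subunit, fell most of all 57 genes. It was counted 203 times in WS against 110 in WD, and 267 times in KS against 75 in KD, or 8.74, 3.37, 8.99 and 2.42 CPM, and its log2 fold change was -1.62 (SE 0.20, adjusted p = 5.1e-08 by edgeR's quasi-likelihood test). The denervated libraries did not overlap the sham libraries, and its counting intervals were among the widest of the set. Ndufa8, an accessory subunit of the membrane arm, was at 245, 158, 255 and 157 CPM and fell by 0.66 (SE 0.07). Ndufb8, a membrane-arm subunit often blotted as a marker of assembled complex I, was at 503, 324, 470 and 313 CPM and fell by 0.61 (SE 0.07). Ndufa12, at 225, 153, 245 and 157 CPM, fell by 0.60 (SE 0.07). For these 3 genes all libraries of a surgery were close to each other in both genotypes. Ndufb2, Ndufb4, Ndufb11 and Ndufb9 fell by 0.56, 0.56, 0.52 and 0.46. The copies Ndufb4b and Ndufb4c, at 7.47 to 15.2 CPM, fell by 0.59 and 0.63, but they share sequence with Ndufb4, and together the copies took 14.0% to 14.8% of the counts of the 3 genes, so the reads may be split between them.

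At the other end, 8 nuclear subunits did not pass the test, beside 6081 of all 13084 genes. Ndufb7 was at 167 CPM in WS against 166 in WD, and 161 in KS against 166 in KD, with a log2 fold change of 0.02 (SE 0.07). Ndufs5 was at 125, 128, 125 and 124 CPM, with a log2 fold change of 0.01 (SE 0.07). The 4 libraries overlapped in both genes and covered a narrow range. Ndufb3 was at 107 CPM in WS against 123 in WD, and 118 in KS against 111 in KD, so denervated was above sham in WT and below it in Fgf21KO muscle. With library totals alone, where 46.7% of all genes were called higher, Ndufb7, Ndufs5 and Ndufb3 passed the test as higher, by 0.34, 0.33 and 0.37. Ndufa2, Ndufb1-ps, Ndufs4, Ndufa7 and Ndufs5-ps had log2 fold changes between -0.16 and -0.03 with TMM scaling, and with library totals alone their estimates were positive and Ndufa7, Ndufb1-ps and Ndufs4 passed as higher. Subunits of the finished enzyme are present in fixed proportion, and their transcripts did not change by equal amounts here, with log2 fold changes of -0.91 for Ndufs7 beside 0.01 for Ndufs5 and 0.02 for Ndufb7.

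Promoters of nuclear complex I genes are known to carry sites for nuclear respiratory factor 1 (NRF1), ETS factors such as GABP, the estrogen-related receptors (ERR) and YY1. Windows of 300 bases (250 before and 50 after the start of the transcript; RefSeq, GRCm38.p6) were at hand for 41 of the 50 nuclear genes. The letters GCGCANGC (NRF1), CCGGAAG (ETS), AAGGTCA (ERR) and AAGATGGC (YY1) were searched on both strands. None of the 4 is contained in another. An NRF1 match was found in 11 of 41 genes (26.8%), beside 9.95% of all 32851 windows of the same length. Members were scored per gene, 2 of them with more than 1 window, and the background per window. The background windows were not limited to genes analysed here, so the shares are not of like sets. A YY1 match was found in 8 of 41 genes (19.5%, against 2.75%), an ETS match in 6 of 41 (14.6%, against 8.86%) and an ERR match in 3 of 41 (7.32%, against 4.72%). An NRF1 match was found for 10 of the 31 genes with a window that fell and for 1 of the 9 that did not pass the test. A YY1 match was found for 6 of 31 and 2 of 9, and an ETS match for 3 of 31 and 3 of 9.

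Windows of 4 genes are shown to compare the 3 largest falls among nuclear subunits with a window with the gene that rose. Capitals mark the matches to these motifs, and lower case is the rest of the window, read 5′ to 3′ in the direction of the gene.
Ndufs7 promoter, chr10:80249199-80249498, plus strand: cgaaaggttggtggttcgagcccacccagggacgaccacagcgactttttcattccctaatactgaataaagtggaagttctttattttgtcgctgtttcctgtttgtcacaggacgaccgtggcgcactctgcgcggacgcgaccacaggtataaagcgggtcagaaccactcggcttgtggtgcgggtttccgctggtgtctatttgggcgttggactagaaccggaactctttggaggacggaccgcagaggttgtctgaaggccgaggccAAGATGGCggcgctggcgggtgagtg
Ndufs8 promoter, chr19:3912725-3913024, minus strand: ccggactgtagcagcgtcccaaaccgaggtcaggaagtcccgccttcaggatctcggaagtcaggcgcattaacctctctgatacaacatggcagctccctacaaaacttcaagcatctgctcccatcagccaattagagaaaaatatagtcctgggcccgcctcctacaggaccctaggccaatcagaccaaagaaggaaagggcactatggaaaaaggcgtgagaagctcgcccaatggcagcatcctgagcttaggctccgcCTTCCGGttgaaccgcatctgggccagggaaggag
Ndufa8 promoter, chr2:36049289-36049588, minus strand: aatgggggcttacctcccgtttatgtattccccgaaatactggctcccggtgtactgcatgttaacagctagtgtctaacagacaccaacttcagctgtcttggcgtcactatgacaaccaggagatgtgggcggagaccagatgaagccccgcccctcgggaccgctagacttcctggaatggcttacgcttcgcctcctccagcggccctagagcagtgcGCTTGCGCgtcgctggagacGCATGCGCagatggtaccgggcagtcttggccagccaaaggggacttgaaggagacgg
Ndufaf2 promoter, chr13:108158576-108158875, minus strand: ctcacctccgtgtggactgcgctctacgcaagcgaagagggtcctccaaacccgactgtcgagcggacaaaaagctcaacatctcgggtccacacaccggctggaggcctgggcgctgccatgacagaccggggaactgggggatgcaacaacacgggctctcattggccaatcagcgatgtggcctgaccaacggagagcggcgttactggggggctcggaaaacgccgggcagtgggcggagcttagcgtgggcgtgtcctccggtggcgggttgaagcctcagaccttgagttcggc
The Ndufs7 window holds 1 YY1 match, which lies close to its 3′ end, the Ndufs8 window 1 ETS match, and the Ndufa8 window 2 NRF1 matches. The Ndufaf2 window holds 0 matches to any of the 4. The 3 genes that fell thus hold different motifs, and a match is a description of the letters, not evidence of binding.

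Of the 8 Ndufaf genes 3 fell, 1 rose and 4 did not pass the test, beside 27.0% lower and 26.6% higher among all genes. Their log2 fold changes spread from -0.85 to 0.91. Ndufaf2, a factor that stands in for Ndufa12 on the late assembly intermediate, was at 6.54 CPM in WS against 14.6 in WD, and 7.78 in KS against 12.5 in KD. Both denervated libraries were above both sham libraries, and the log2 fold change was 0.91 (SE 0.15, adjusted p = 5.6e-06 by edgeR's quasi-likelihood test). Ndufa12 itself fell by 0.60, so the pair moved in opposite directions, which held under each scaling tried.

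Ndufaf6, an early-acting factor, was at 25.4 CPM in WS against 13.6 in WD, and 24.6 in KS against 14.2 in KD and fell by 0.85 (SE 0.11) on the log2 scale. Ndufaf5, which modifies Ndufs7, was at 35.1, 23.8, 40.8 and 20.4 CPM and fell by 0.78 (SE 0.10). Ndufaf4, which acts with Ndufaf3 on the peripheral arm, was at 52.9, 44.3, 62.4 and 44.9 CPM and fell by 0.37 (SE 0.08), though not with library totals alone, where it changed by -0.05. Ndufaf6 and Ndufaf5 thus changed about as much as the mitochondrial subunits. For Ndufaf6, Ndufaf5 and Ndufaf4 the denervated libraries were below both sham libraries (background 36.7%).

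The other 4 factors had overlapping libraries. Ndufaf1, needed for the membrane arm, was at 51.6 CPM in WS against 63.4 in WD, and 55.8 in KS against 51.6 in KD, with a log2 fold change of 0.09 (SE 0.09). Ndufaf3 was at 13.8, 14.2, 15.1 and 14.8 CPM (log2 fold change 0.01, SE 0.12). Ndufaf7, a methyltransferase, was at 19.7, 25.3, 21.5 and 21.3 CPM (0.17, SE 0.11). Ndufaf8, a partner of Ndufaf5, was at 9.34, 11.4, 11.2 and 10.02 CPM (0.05, SE 0.14). In Ndufaf1, Ndufaf7 and Ndufaf8 the WD library was the highest of the 4. With library totals alone these 4 factors passed the test as higher, as did 46.7% of all genes. The median of all genes then moved up by 0.29 in WT and 0.36 in Fgf21KO muscle.

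**Figure D4:**
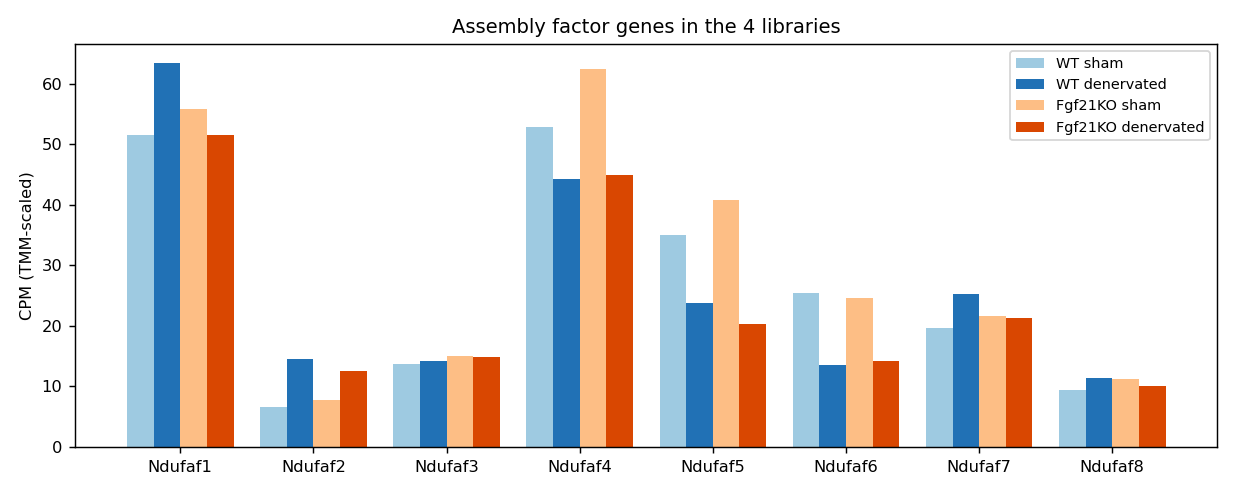
CPM after TMM scaling (y axis) of the 8 assembly factor genes (x axis) in the 4 libraries, 1 bar per pooled library and so no error bar. Ndufaf2 is higher and Ndufaf5 and Ndufaf6 are lower in both denervated libraries, whereas Ndufaf3 stays between 13.8 and 15.1 CPM.

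Of 12 assembly genes with other names analysed here 5 fell and 1 rose, beside 27.0% and 26.6% of all genes. Dmac2, a membrane-arm factor, fell most, by 0.69 (SE 0.08), from 52.1 and 55.5 CPM in the sham to 33.3 and 33.2 CPM in the denervated libraries. Ecsit, Timmdc1, Tmem126b and Oxa1l also fell. Nubpl, which delivers iron-sulfur clusters to complex I, rose by 0.50 (SE 0.14), from 7.40 and 8.42 to 10.2 and 12.2 CPM.

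Genes that act on the mitochondrial genome and its RNA moved in both directions. Of 26 genes of mitochondrial transcription and RNA stability analysed, 5 fell and 7 rose, beside 27.0% and 26.6% of all genes, with a median log2 fold change of 0.09. The lowest was Fastkd3 (-0.41, SE 0.14), an RNA-binding protein of the FASTK family. The highest was Mterf1b (0.74, SE 0.36), at 23 to 55 counts, which did not pass the test. Polrmt (-0.37, SE 0.09) and Tfam (-0.20, SE 0.08) were among those that fell, and Tfb1m (0.74, SE 0.15) among those that rose. Of 9 genes of mitochondrial DNA replication 2 fell and 4 rose, beside the same shares of all genes. Their median log2 fold change was 0.25, beside 0.01 for all genes tested. The nuclease Mgme1 was lowest (-0.72, SE 0.12) and the primase Primpol highest (1.29, SE 0.22). None of these values tells how much mitochondrial DNA was present, which was not measured.

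Within each genotype few members changed by 2-fold. In WD against WS 2 genes were at least 2-fold lower (background 7.61%) and 1 was at least 2-fold higher (background 7.18%). The lowest were Ndufa4l2 (log2 ratio -1.36), ND2 (-1.26) and ND4L (-0.91), and the highest were Ndufaf2 (1.14), Ndufaf7 (0.36) and Ndufaf1 (0.30). In KD against KS 4 genes were at least 2-fold lower (background 6.10%) and 0 were at least 2-fold higher (background 7.51%). The lowest were Ndufa4l2 (-1.86), ND2 (-1.44) and ND1 (-1.05), with ND4L at -1.02, and the highest were Ndufaf2 (0.68), Ndufb7 (0.05) and Ndufs5 (-0.0078). These ratios compare single pooled libraries and have no replicate check.

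The denervation ratio was lower in Fgf21KO than in WT muscle for 48 of 57 genes (background 50.8%), among them 7 of 7 mitochondrial subunits, 34 of 42 nuclear subunits and 7 of 8 assembly factors. With library totals alone it was 31 of 57, beside 38.3% of all genes. The class medians in WT and Fgf21KO muscle were -0.80 and -0.99 for mitochondrial subunits, -0.29 and -0.37 for nuclear subunits, and 0.16 and -0.14 for assembly factors. For mitochondrial subunits the difference came with a higher KS library, not with a lower KD library. Whether the response differed between genotypes could not be tested, and mice of the 2 genotypes were not shown to share a background.

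**Figure D5:**
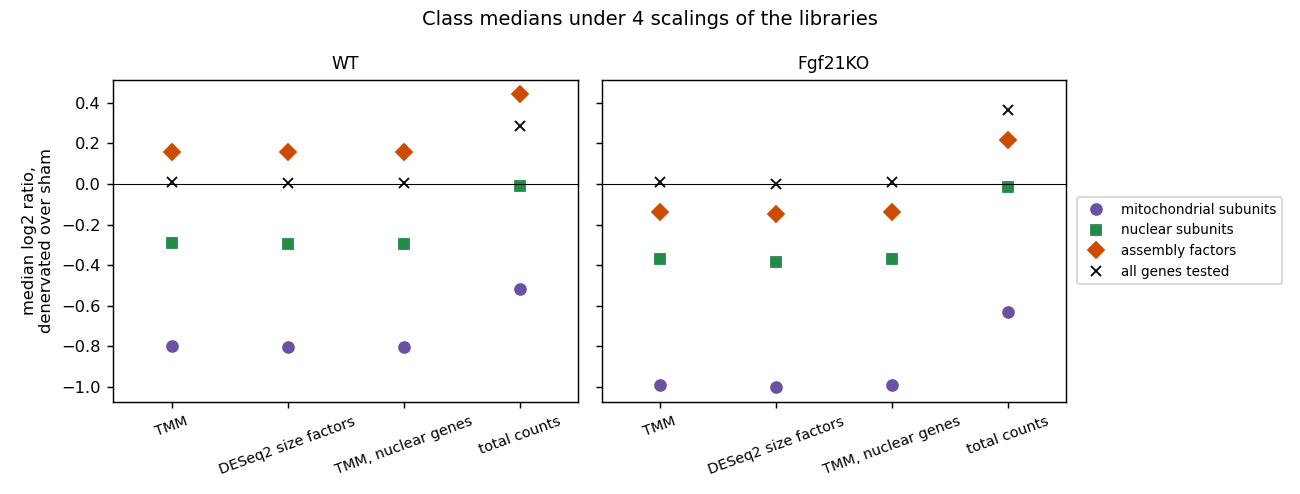
Median log2 ratio of denervated over sham muscle (y axis) for each class of complex I genes and for all genes tested, under 4 scalings of the libraries (x axis), in WT (left) and Fgf21KO (right). With library totals every median moves up by about the same amount, so nuclear subunits come to -0.01 in both panels while mitochondrial subunits remain below 0 at -0.52 and -0.63.

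Between genotypes the differences were small. In KS against WS 0 of the 57 genes were at least 2-fold apart (background 2.04% in either direction), and in KD against WD 0 were (background 1.55%). In sham muscle the highest log2 ratios of Fgf21KO over WT were those of ND3 (0.40), ND1 (0.36) and ND6 (0.34), and the lowest were those of Ndufs8 (-0.11), Ndufa1 (-0.10) and Ndufb8 (-0.10). In denervated muscle the highest were ND6 (0.31), ND1 (0.17) and ND3 (0.16), and the lowest were Ndufa4l2 (-0.46), Ndufaf1 (-0.30) and Ndufaf7 (-0.25). The mitochondrial-to-nuclear count ratio was 1.17-fold higher in KS than in WS and 1.08-fold higher in KD than in WD.

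All 7 mitochondrial subunits were higher in Fgf21KO than in WT muscle both after sham surgery and after denervation, as were 5 of the 6 mitochondrially encoded genes of other complexes. Over all members this held for 25 of 57 (background 25.8%), including 16 of 42 nuclear subunits. The sham and denervated legs were those of the same mice, so the genotype test has 1 pool of mice per genotype behind it and no independent mice. It called 1 gene higher, ND6 (background 0.313%), and 0 lower (background 0.359%). The log2 fold change of ND6, Fgf21KO over WT, was 0.33 (adjusted p = 0.020 by edgeR's quasi-likelihood test), and the call was lost with library totals alone (0.28, adjusted p = 0.082) and without the filter on low counts (adjusted p = 0.061). DESeq2's Wald test likewise called 1 gene higher and 0 lower, and its share of all genes is not given here. In edgeR's test 5 of the 57 genes had an unadjusted p under 0.05, beside 1037 of all 13084. The deleted gene, Fgf21, was not analysed here and gave no check of the genotype labels.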

How the data were processed

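RNA of TA muscle was sequenced from 4 groups as 1 pooled library each (TruSeq Stranded mRNA kit). The authors deposited unnormalized read counts for each gene. They also deposited log2 values, which were found to be log2(f × count + 1) with a single factor f in each library. The submitters' processing notes name GRCm39 and FastQC. The aligner and the counter are not given in the sources used here, nor whether counting used strand. Groups were taken from the sample labels. Library totals were 25249879 (WS), 29150147 (WD), 34141303 (KS) and 27740920 (KD) counts over the 13825 genes of the table, and a level of 3 counts corresponded to 0.0879 to 0.119 CPM before TMM scaling.

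Genes whose mean count was 10 or more (13084) were fitted in edgeR 4.0.16 (R 4.3.3) with TMM scaling, a common biological coefficient of variation of 0.0681 and Benjamini-Hochberg adjustment over all of them. Pair ratios used a prior count of 2. Intervals and floors cover counting error only. On simulated data with 200 of 13084 genes changed, the denervation test recovered 74.4% of genes changed by 0.5 and 100% of those changed by 1 on the log2 scale, with a median of 7 false calls in 5 draws. The simulation took its spread from these same 4 libraries, had no genotype effect and changed only genes with higher counts. It therefore cannot tell how reliable the calls are given the unmeasured spread between mice. Other analyses used Python 3.11.15, pandas 2.3.3 and scipy 1.17.1. Transcript lengths were those of principal transcripts in GENCODE M21 and promoter windows those of RefSeq, both on GRCm38, so no gene positions other than the windows are given.

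Every gene matched by the symbol rule may be named, but 1 member is not reported here on its own and enters counts and medians only. Values in each library are given for the mitochondrial and nuclear core subunits, the assembly factors and the 3 highest and lowest genes of each comparison, other genes by the highest and lowest of each list. Other genes named in the text, and the 4 promoters shown, were chosen after their values were seen. The members and gene lists were chosen with earlier results of these data known. Alternatives were DESeq2 1.42.0 size factors and Wald test, library totals, TMM from nuclear genes, other filters and prior counts, an exact test at an assumed variation, a 2-fold threshold, the second table, and other summaries of the classes.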

Additional observations from a re-analysis of the deposited data

Results flagged for a closer look

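With TMM scaling, a few genes moved in opposite directions in the 2 genotypes or under the 2 surgeries. Their counting intervals lay on opposite sides of 0. The differences were not tested, since each value compares 2 single libraries. For denervated over sham muscle, the log2 ratio of Ndufaf1 was 0.30 in WT and -0.11 in Fgf21KO muscle, and that of Ndufb3 was 0.19 and -0.095. For Fgf21KO over WT, the log2 ratio in sham and in denervated muscle was 0.11 and -0.30 for Ndufaf1 and 0.22 and -0.22 for Ndufaf5. It was 0.14 and -0.15 for Ndufb3, 0.26 and -0.052 for Ndufb5, and 0.042 and -0.046 for Ndufa10. The share of all genes that meet the same rule is not given here, so neither list can be read as particular to complex I. Ndufaf1 and Ndufb3 appear in both lists, which share libraries. Some of these signs rest on TMM scaling. With library totals alone the median of all genes was 0.36 for KD against KS, beside 0.01 with TMM. That shift is larger than the negative ratios of Ndufaf1 and Ndufb3 there. For KS against WS the median of all genes was -0.08, beside -0.0017, a shift larger than the ratio of Ndufa10.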

How the results depend on the processing

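No paired analysis was possible because a group consists of a single pool, and for the same reason no replicate could be left out. DESeq2 size factors and TMM from nuclear genes gave the same 44 and 1 calls for denervation. Of all genes, 27.1% were lower and 25.9% higher with the former, and 27.0% and 26.4% with the latter. DESeq2's Wald test gave 41 and 1, without Ndufa1, Ndufs3 and Ndufv3, beside 19.0% and 16.9% of all genes under that test.

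Library totals alone gave 19 members lower and 11 higher for denervation, beside 12.8% and 46.7% of all genes. They gave 0 higher for genotype, and 31 members with a lower denervation ratio in Fgf21KO, the last alternative being added after seeing the data. The nuclear medians became -0.0087 in WT, -0.012 in Fgf21KO and 0.000121 for KS against WS. The mitochondrial medians became -0.52, -0.63 and 0.24, and the assembly factor medians 0.44 and 0.22. The denervation estimates of 16 genes reported singly turned positive, to 0.16 for Ndufa2 and 0.29 for Ndufs5-ps, which passed the test under neither scaling, and to 0.098 for Ndufa1, 0.046 for Ndufa10, 0.089 for Ndufa13, 0.0196 for Ndufa3, 0.000836 for Ndufa4, 0.19 for Ndufa7, 0.16 for Ndufb1-ps, 0.011 for Ndufb10, 0.014 for Ndufc1, 0.071 for Ndufc2, 0.13 for Ndufs3, 0.18 for Ndufs4, 0.0136 for Ndufv1 and 0.13 for Ndufv3. By construction, TMM centres the bulk of genes and library totals do not.

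A 2-fold threshold left 2 lower and 0 higher calls for denervation and 0 higher for genotype. Without the filter 0 members were higher for genotype. An exact test between single libraries called 3 members in WD against WS and 5 in KD against KS at an assumed variation of 0.1. At 0.4 it called 0 and 0. The share of all genes called by the exact test is not given here. The mitochondrial medians were -1.001 (KD against KS) and 0.33 (KS against WS) with DESeq2 size factors, and -0.82 (WD against WS) and -1.01 (KD against KS) in the second table. From summed CPM the mitochondrial values were -0.88, -1.07, 0.28 and 0.093 in the order WD against WS, KD against KS, KS against WS and KD against WD, and those of the assembly factors -0.026 and -0.33 in the first 2. The mitochondrial-to-nuclear ratio in WS, WD, KS and KD was 10.9, 7.47, 12.8 and 8.05 without Ndufa4, Ndufa4l2 and the copies, 10.3, 6.996, 12.0 and 7.53 without ND6, and 51.6, 35.9, 55.1 and 36.7 as medians per kilobase, with the same order of libraries.

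Library totals alone also took 13 other members out of the denervation calls and brought 7 in.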
